A study of Mus musculus with 5 samples.

Results

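The ATF4 and CHOP core response is described here from 10 genes: Atf4, Atf5, Ddit3 (which encodes CHOP), Nupr1, Trib3, Asns, Chac1, Ppp1r15a, Ppp1r15b and Fgf21. They were found on the arrays by gene symbol or by the gene ID belonging to it, and all 10 were present, with 11 of the 21789 probe sets that carry a single gene symbol. Ppp1r15b had 2 probe sets, and the brighter one stands for the gene below. Signals came from 5 mouse heart grafts, each on 1 Affymetrix Mouse Gene 1.0 ST array, as log2 values made by the RMA method, which corrects background, puts arrays on a common distribution and gives 1 value for each probe set. Donors and recipients were C57BL/6 mice of 8 weeks, so grafts and hosts were syngeneic, and every heart was heparinised, excised and sewn to the abdominal vessels of a recipient. In the I/R group (grafts 2553, 2555 and 2557) the heart was kept in University of Wisconsin solution at 4 degrees C for 18 h before implantation. In the non-I/R group (grafts 2554 and 2556) it was implanted at once, so the controls had also been through surgery and reperfusion and no native heart is among these arrays. The source names in the labels set these groups apart, but the treatment protocol in the labels gives the 18 h of cold storage for all 5 samples, the 2 non-I/R grafts included, and the groups here follow the source names. The labels give harvest at 24 h after transplantation, whereas the Results of the study speak of day 2. Whether each graft came from its own recipient is not stated, and p-values measure only the spread between these arrays, whose number limits the precision. With 3 grafts against 2, an exact permutation test (two-sided) cannot give a p under 0.1.

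As background, these genes form the common arm of the integrated stress response. Kinases that sense unfolded protein in the endoplasmic reticulum, lack of amino acids, lack of heme or viral RNA phosphorylate the initiation factor eIF2, which slows protein synthesis but favours translation of the mRNA for ATF4. ATF4 then drives genes for amino acid supply, CHOP joins it when the stress lasts, and Ppp1r15a closes the loop by bringing a phosphatase to eIF2. Much of the control of ATF4 and ATF5 therefore lies in translation, which mRNA arrays do not measure. In the heart, the pathway is known from ischemia, mitochondrial disease and pressure overload.

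ATF4 pairs with C/EBP proteins on a composite C/EBP-ATF response element, and the promoter stretches below show where letters of that kind stand in front of 4 of these genes. RefSeq windows of 300 bases on GRCm38.p6, from 250 bases before to 50 after each gene start, were found for 9 of the 10 genes (2 windows for Atf5) and not for Ppp1r15b. They were searched on both strands for TGATGNAA, where N is any base, for the cAMP response element TGACGTCA and for the ER stress response element. The letters TGATGNAA stood in windows of 5 genes (Asns, Chac1, Fgf21, Nupr1 and Trib3), against 3.97% of 32851 windows of all genes. For Trib3 the match lies after the gene start, from base 15, and is not printed. Ppp1r15a had the letters of the cAMP response element, which 1.79% of all windows hold. No member's window held the ER stress element, found in 0.119% of all. A match is a matter of letters and shows no binding. Each stretch is written 5′ to 3′ on the strand of its gene, with the match in capitals. TTGCATCA is the form that TGATGNAA, with C as N, takes when it lies on the opposite strand.
Asns: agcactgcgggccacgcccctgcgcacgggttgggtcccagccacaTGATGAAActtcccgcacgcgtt
Chac1: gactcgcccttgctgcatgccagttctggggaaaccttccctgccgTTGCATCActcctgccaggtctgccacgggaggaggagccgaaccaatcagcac
Nupr1: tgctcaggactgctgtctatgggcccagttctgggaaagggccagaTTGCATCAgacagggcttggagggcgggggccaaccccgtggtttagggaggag
Fgf21: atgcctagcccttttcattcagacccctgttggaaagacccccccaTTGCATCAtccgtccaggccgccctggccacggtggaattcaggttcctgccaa
Ppp1r15a: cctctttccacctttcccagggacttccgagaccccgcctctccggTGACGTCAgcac
They come from chr6:7693210-7693278 (minus strand, the last base next to the gene start) for Asns, chr2:119351003-119351102 (plus strand) for Chac1, chr7:126625527-126625626 (minus strand) for Nupr1, chr7:45615576-45615675 (minus strand) for Fgf21 and chr7:45526269-45526326 (minus strand, again next to the gene start) for Ppp1r15a. The first matching base is at -23 for Asns, -193 for Chac1, -110 for Nupr1, -139 for Fgf21 and -12 for Ppp1r15a. Asns and Fgf21 both hold this kind of match, and their differences between the groups were far apart, as their values further on show. Fgf21 was dim on these arrays, at 5.22 to 5.42, and any link between match and difference was not tested.

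**Figure D1:**
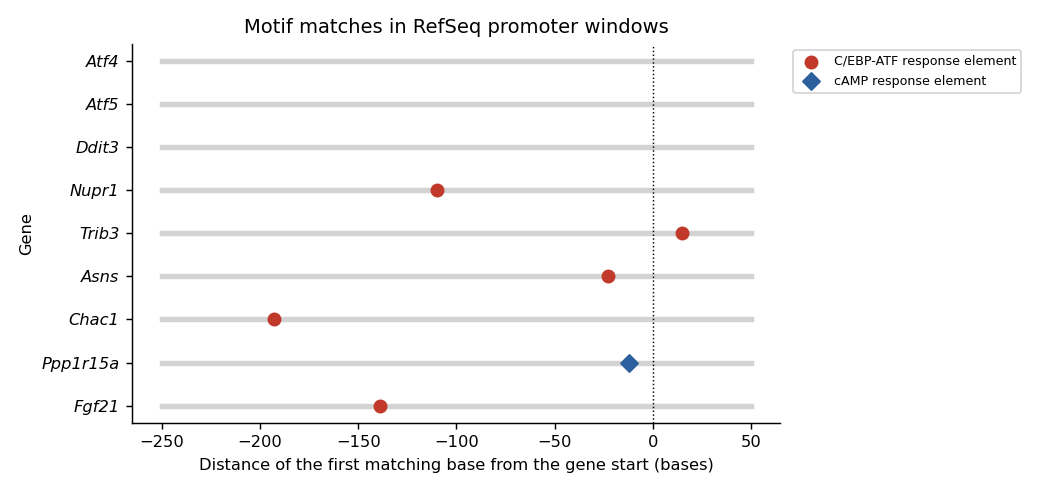
Position of motif matches (x axis, bases from the gene start, dotted line) in the RefSeq windows of 9 genes (y axis), red circles for TGATGNAA and the blue diamond for TGACGTCA; grey bars are the windows searched. Asns, Chac1, Nupr1, Fgf21 and Trib3 hold the first motif, Ppp1r15a the second, and Atf4, Atf5 and Ddit3 neither.

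Of the 4 genes here that act in transcription (Atf4, Atf5, Ddit3 and Nupr1), Atf4 had the largest difference. Its log2 signals were 8.76 and 9.10 in the non-I/R grafts 2554 and 2556 and 9.70, 10.06 and 9.65 in the I/R grafts 2553, 2555 and 2557. All 3 I/R grafts lay above both controls. The log2 fold change was 0.88 (SE 0.188), or 1.83-fold, with an unadjusted p of 0.0108 and an adjusted p of 0.284 from limma. It was 0.70 without non-I/R 2554, where the unadjusted p was 0.0654. Atf5, a close relative that is also translated when eIF2 is phosphorylated, had log2 signals of 8.25 and 8.21 in the non-I/R grafts and 8.49, 8.74 and 8.46 in the I/R grafts. Its groups did not overlap either, although the difference was small, at 0.33 (SE 0.104; limma, adjusted p = 0.311). The unadjusted p of 0.0356 did not stay under 0.05 without I/R 2553 (0.0675), non-I/R 2554 (0.122) or non-I/R 2556 (0.155), nor with the methods' t-test (0.0644).

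Ddit3 and Nupr1 differed less. Ddit3, whose product CHOP pairs with C/EBP proteins and drives genes of prolonged stress, had log2 signals of 8.32 and 8.47 in the non-I/R grafts and 8.87, 8.73 and 8.48 in the I/R grafts. The lowest I/R graft, 2557, was only 0.014 above the higher control, 2556, so the groups touched without overlapping. The log2 fold change of Ddit3 was 0.30 (SE 0.142; limma, adjusted p = 0.424), with an unadjusted p of 0.103, which became 0.024 without I/R 2557. For Nupr1, a small stress-induced chromatin protein, the non-I/R grafts were at 8.04 and 7.73 and the I/R grafts at 8.06, 8.27 and 8.11. Here I/R 2553 was 0.019 above non-I/R 2554. The log2 fold change of Nupr1 was 0.26 (SE 0.127; limma, adjusted p = 0.433), and its unadjusted p of 0.113 became 0.0403 without non-I/R 2554. Neither gene passed an unadjusted p of 0.05 with all 5 grafts.

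Asns, which makes asparagine from aspartate and glutamine, was 1 of the 2 members whose difference exceeded 2-fold. Its log2 signals were 9.21 and 9.76 in the non-I/R grafts and 11.06, 10.72 and 10.85 in the I/R grafts. The lowest I/R graft was 0.96 above the higher control, a gap larger than the range of 0.338 within the I/R group. The log2 fold change was 1.39 (SE 0.215), or 2.63-fold, with an unadjusted p of 0.0034 and an adjusted p of 0.282 from limma. It lay between 1.12 (without non-I/R 2554) and 1.67 (without non-I/R 2556) with 1 graft left out, and the positive difference ranked 32 among the 21789 probe sets.

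Trib3 and Chac1, which textbooks place beside Asns as targets of ATF4 and CHOP, varied widely among the I/R grafts. Trib3, a pseudokinase that restrains Akt and ATF4, had log2 signals of 7.15 and 7.49 in the non-I/R grafts and 8.48, 7.82 and 7.35 in the I/R grafts. Its groups overlapped, since I/R 2557 lay below non-I/R 2556. Chac1, an enzyme that breaks down glutathione, had 8.31 and 8.39 in the non-I/R grafts and 9.67, 8.93 and 7.85 in the I/R grafts. For this gene I/R 2553 was the highest of the 5 arrays and I/R 2557 the lowest. The I/R grafts spanned 1.13 for Trib3 and 1.82 for Chac1, against 0.206 to 0.414 for the members among the transcription factors, Asns and both phosphatase subunits. The log2 fold changes were 0.57 (SE 0.392; limma, adjusted p = 0.495) for Trib3 and 0.47 (SE 0.607; limma, adjusted p = 0.683) for Chac1, smaller than the range of the I/R grafts. Without I/R 2553 they were 0.27 and 0.041, and without I/R 2557 they were 0.83 and 0.95.

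The 2 genes that encode regulatory subunits of the eIF2 phosphatase both had higher signals in the I/R grafts, by unequal amounts. Ppp1r15a, the stress-induced subunit also called GADD34, had log2 signals of 7.59 and 8.22 in the non-I/R grafts and 9.24, 9.60 and 9.50 in the I/R grafts. Its log2 fold change was 1.54 (SE 0.241), or 2.92-fold, the largest of the 10 genes, with an unadjusted p of 0.00356 and an adjusted p of 0.282 from limma. With 1 graft left out it was lowest (1.23) when that graft was non-I/R 2554 and highest (1.86) when it was non-I/R 2556. Ppp1r15b, the subunit made without stress, had 7.84 and 7.98 in the non-I/R grafts and 8.34, 8.63 and 8.52 in the I/R grafts. All I/R grafts were again above both controls, with a log2 fold change of 0.59 (SE 0.106), or 1.5-fold, an unadjusted p of 0.00596 and an adjusted p of 0.282 from limma. With both 2554 and 2555 left out it was 0.45, with an unadjusted p of 0.108. The dimmer probe set of Ppp1r15b, which the annotation ties to a single cDNA clone, had signals of 6.32 and 6.24 in the non-I/R grafts and 6.12, 6.24 and 6.24 in the I/R grafts. It thus gave no such difference (-0.079, SE 0.057; limma, adjusted p = 0.501), and the 2 probe sets disagree.

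Fgf21, a hormone that liver and stressed muscle release, did not pass the test in either direction. Its log2 signals were 5.32 and 5.32 in the non-I/R grafts and 5.42, 5.32 and 5.22 in the I/R grafts, so 3 of the 5 arrays hold the same deposited value. The log2 fold change was -0.003 (SE 0.0666; limma, adjusted p = 1.0). Fgf21 was the dimmest of the 10 brighter probe sets and lay under the 25th percentile of all probe sets by mean signal. Values tied between arrays are common in this table, in 11715 of the 21789 probe sets, and of the 11 probe sets here this one and the dimmer one of Ppp1r15b had them.

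**Figure D2:**
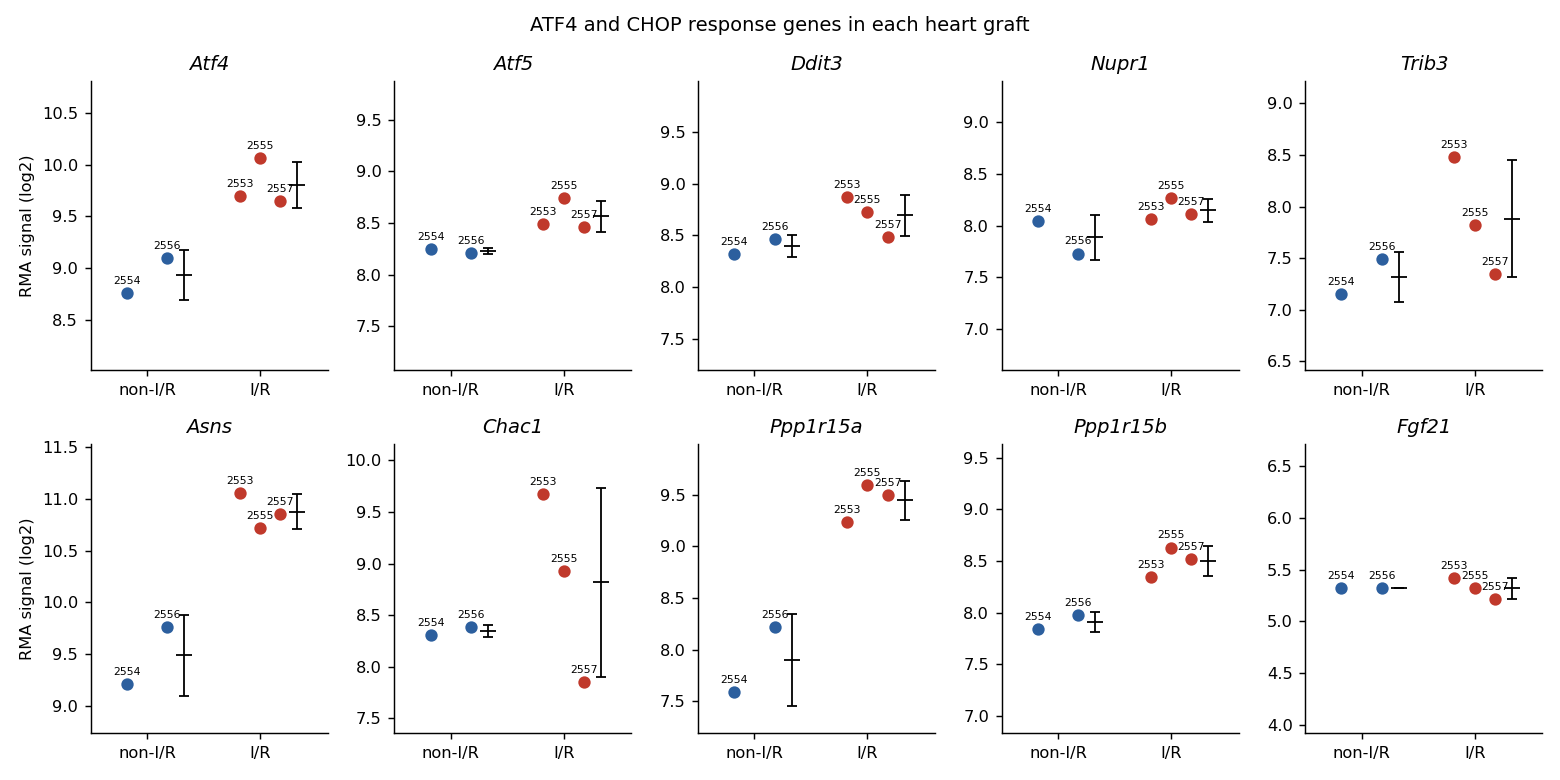
RMA signal (y axis, log2, each panel spanning the same height) of the 10 genes, with each of the 2 non-I/R grafts a blue point and each of the 3 I/R grafts a red point under its graft number; black marks give the mean ± SD of a group. The I/R grafts lie clear of the controls for Atf4, Asns, Ppp1r15a and Ppp1r15b, and Chac1 and Trib3 spread over a wide range in the I/R group, from 7.85 to 9.67 and from 7.35 to 8.48.

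Counted together, 9 of the 10 genes had a higher mean in the I/R grafts and Fgf21 did not. At an unadjusted p under 0.05 from limma, 5 genes (Asns, Ppp1r15a, Ppp1r15b, Atf4 and Atf5) were higher and none was lower, where 7.64% of all probe sets tested were higher and 7.35% lower. At a 2-fold difference with such a p, Asns and Ppp1r15a were higher (2 of 10), against 0.496% of all probe sets. The study used this fold cut, with its own ANOVA p, for its longer gene list and its pathways. Its shorter list had a higher fold cut, which neither Asns (2.63-fold) nor Ppp1r15a (2.92-fold) reached. Groups did not overlap for 7 of the 10, all higher in the I/R grafts, against 15.8% of all probe sets. For Ddit3 and Nupr1 the gap was only 0.014 and 0.019. A tie between the lowest I/R graft and the highest control counts as overlap. Ties between arrays were in 11715 of the 21789 probe sets but, among these 10, only in Fgf21, so the 15.8% is not a like-for-like share. No member passed an adjusted p of 0.05, and neither did any of the 21789 probe sets (0%). The median log2 fold change of the 10 genes was 0.52, against -0.0079 over all probe sets, and it was 0.34 without I/R 2553 and 0.70 without I/R 2557. Asns and Ppp1r15a stand in the list of changed genes that the study made from these same arrays, as do Atf3, Mthfd2 and other genes named below, so their direction is not independent evidence. Leaving out both non-I/R 2554 and I/R 2555, which had the highest atrial muscle signals in their groups, kept Asns at the criterion (1.20) and lost Ppp1r15a by its unadjusted p (0.0505), with a log2 fold change of 1.16.

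**Figure D3:**
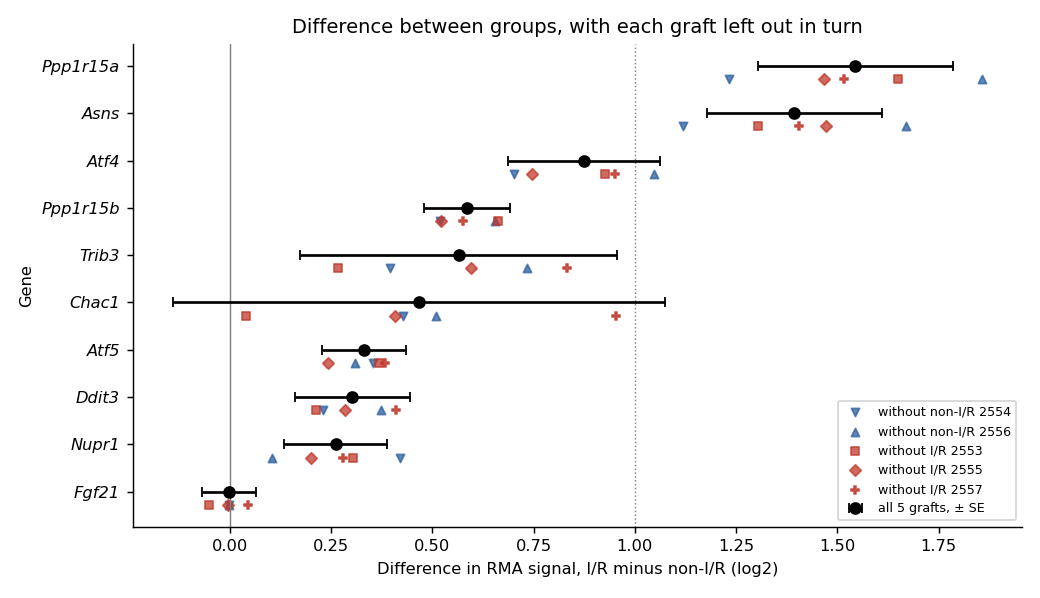
Log2 difference for each gene (x axis, mean of 3 I/R grafts less mean of 2 non-I/R grafts; y axis, genes), with black points and bars for the value and its SE from all 5 grafts and coloured symbols for the value with 1 graft left out. The dotted line marks 2-fold. Ppp1r15a and Asns stay beyond 2-fold in all 5 cases, whereas Chac1 moves between 0.041 and 0.95.

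The I/R grafts did not share 1 order across the genes. Ddit3, Trib3, Asns, Chac1 and Fgf21 were highest in I/R 2553, and Atf4, Atf5, Nupr1, Ppp1r15a and Ppp1r15b were highest in I/R 2555. None of the 10 was highest in I/R 2557, where 37.7% of the 16621 probe sets without a tie for the highest I/R graft were. Of the same probe sets, 33.2% were highest in I/R 2553 and 29.1% in 2555. Of 29 other ATF4 targets without a tie, 20 were highest in I/R 2553, 3 in 2555 and 6 in 2557. This order was not limited to ATF4 targets. Among genes without a tie in lists described below, 2553 was highest for 11 of 17 in the IRE1 and ATF6 list. The same held for 6 of 9 in the mitochondrial stress relay list. Of 18 aminoacyl-tRNA synthetases, 7 were highest in 2553 and 11 in 2557. The mean deviation of the 10 genes from their own means was -0.473 and -0.286 in non-I/R 2554 and 2556 and 0.381, 0.331 and 0.047 in I/R 2553, 2555 and 2557. Among the I/R grafts this mean was lowest in 2557. Its gap to I/R 2553 came mostly from Chac1 and Trib3, at 7.85 and 7.35 in 2557 against 9.67 and 8.48 in 2553. Nupr1, Ppp1r15a and Ppp1r15b were higher in 2557 than in 2553, and Asns and Ppp1r15a in 2557 lay between the other two I/R grafts. Between the controls, 7 of the 10 genes were higher in 2556 than in 2554, 2 were lower and Fgf21 was equal, where 37.4% of all probe sets were higher in 2556. These orders were seen in the values and were not tested.

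Marker signals of some cell types also differed between the groups, and their part in the results was not tested. In bulk tissue, fewer cells of a type and less RNA in each cell cannot be told apart. The heart muscle markers Tnnt2 and Tnni3 were among the brightest, at 13.23 to 14.00 and 12.68 to 13.50, so heart muscle RNA was present in every graft. All 10 heart muscle markers had lower means in the I/R grafts (9 at an unadjusted p under 0.05, against 7.35% of all probe sets), and the mean deviation of the list was 0.323 to 0.473 in the non-I/R grafts and -0.408 to -0.083 in the I/R grafts. Of 11 neutrophil markers, 9 had higher means in the I/R grafts, 5 of them at that threshold (7.64% of all probe sets), and 1 was lower at it (Lcn2, -0.59). The neutrophil list was at -0.644 and -0.294 in the non-I/R grafts and at -0.035, 0.692 and 0.280 in I/R 2553, 2555 and 2557. Atf4, Atf5, Nupr1 and both phosphatase subunits were highest in 2555, the graft highest in neutrophil markers. The other 5 genes were highest in 2553, where the neutrophil list was lowest among the I/R grafts. Among the I/R grafts, 2555 was also lowest in heart muscle markers (-0.408) and highest in atrial (0.709) and endothelial markers (0.173). These lists cannot be told apart by such orders, and none was tested. Macrophage markers did not set the groups apart, with 0.360 and -0.196 in the non-I/R grafts and -0.363 to 0.175 in the I/R grafts. Atrial muscle markers differed within both groups, at 1.41 and -1.28 in the non-I/R grafts and at -0.816, 0.709 and -0.018 in I/R 2553, 2555 and 2557. All 6 hepatocyte markers measured had lower means in the I/R grafts, 1 of them at an unadjusted p under 0.05 from limma (Apoa1, -0.19). The 2 brightest, Apoa1 and Ttr, had log2 signals of 6.40 to 6.68 and 5.74 to 6.80 over the 5 grafts.

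**Figure D4:**
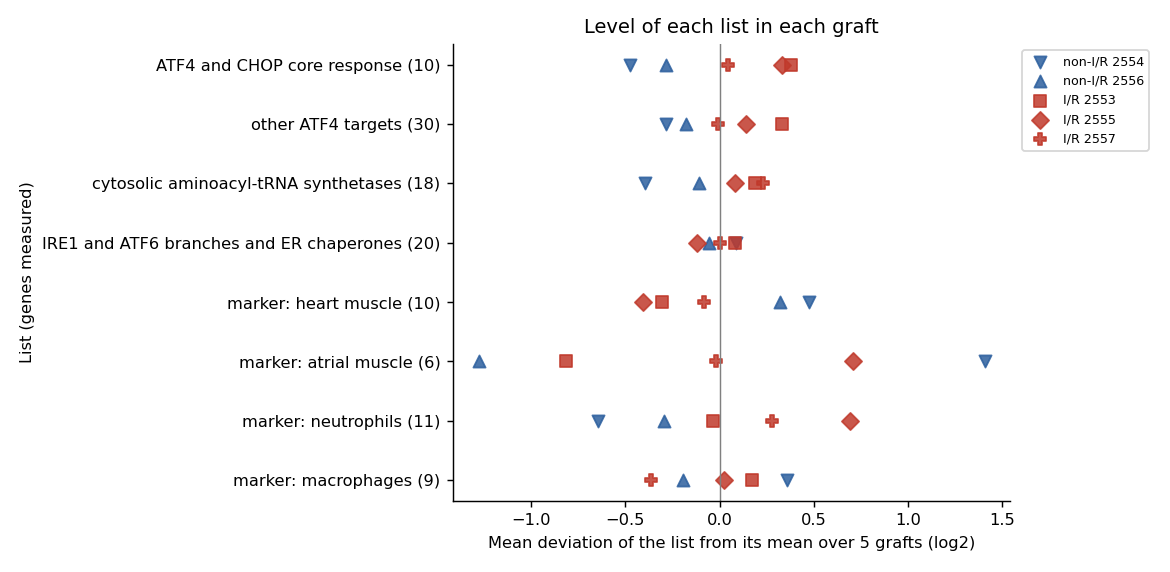
Mean deviation of gene lists and marker lists from their mean over the 5 grafts (x axis, log2; y axis, lists with the number of genes measured), blue for non-I/R and red for I/R grafts, 1 symbol for each graft. The ATF4 and CHOP genes are at -0.473 and -0.286 in the non-I/R grafts and at 0.047 to 0.381 in the I/R grafts, and heart muscle markers lie on the opposite side of 0.

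Upstream of ATF4, the signals differed by smaller amounts. Of 12 genes for eIF2 kinases, eIF2 subunits and its exchange factor eIF2B, 11 were measured, 9 had higher means and 2 lower, and 3 were higher at an unadjusted p under 0.05 (7.64% of all probe sets), with a median of 0.16. These were Eif2ak3, the kinase PERK that senses unfolded protein, and the exchange factor subunits Eif2b2 and Eif2b1. Eif2ak3 had log2 signals of 7.78 and 7.82 in the non-I/R grafts and 8.20, 8.12 and 8.02 in the I/R grafts. Its log2 fold change was 0.32 (SE 0.0642; limma, adjusted p = 0.282), and Eif2b2 and Eif2b1 had 0.29 (SE 0.0823) and 0.16 (SE 0.0563). The count was 0 when non-I/R 2554 was left out, alone or with I/R 2555, and 1 when I/R 2557 was left out, with the methods' t-test or without tied probe sets.

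Among proteins that can pair with ATF4 or CHOP, 15 of 16 genes were measured, 12 with higher and 3 with lower means, and the median was 0.20. At an unadjusted p under 0.05, Jun, Cebpg and Atf3 were higher (7.64% of all probe sets) and none was lower (7.35%). Atf3, a repressor that ATF4 induces, had log2 signals of 9.30 and 9.60 in the non-I/R grafts and 10.80, 10.32 and 10.44 in the I/R grafts. With a log2 fold change of 1.07 (SE 0.193; limma, adjusted p = 0.282), it was the 1 gene of this list past the 2-fold criterion (0.496% of all probe sets), and it fell short of 2-fold without I/R 2553 (0.93) or non-I/R 2554 (0.92). Cebpg, the C/EBP partner of ATF4 at amino acid genes, had 0.40 (SE 0.0727), and the AP-1 subunit Jun had 0.40 (SE 0.0479).

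Downstream, some of the other known ATF4 targets had higher signals and others did not pass the test. Of 32 other ATF4 targets, 30 had a probe set with a single symbol, 23 with higher and 7 with lower means, and the median was 0.37. Gdf15 and Pycr1 had none and were left out, although the study lists Gdf15 as higher in I/R from these same arrays. At an unadjusted p under 0.05, 9 were higher (7.64% of all probe sets) and none was lower (7.35%), and 6 were higher by 2-fold (0.496%). The number lower was 1 with median-centred arrays, with renewed quantile normalization, without tied probe sets or without non-I/R 2556, and 2 without both 2554 and 2555. The 3 of smallest p were the arginine and lysine transporter Slc7a1 at 1.06 (SE 0.165), the folate enzyme Mthfd1l at 1.09 (SE 0.194) and its partner Mthfd2 at 1.49 (SE 0.271), each with an adjusted p of 0.282 from limma. For Mthfd2 the non-I/R grafts were at 8.28 and 9.01 and the I/R grafts at 10.34, 10.09 and 9.98, all I/R grafts above both controls. The other 3 past 2-fold, named after their values were seen, were the leucine transporter Slc7a5 (1.30, SE 0.320), the cystine transporter Slc7a11 (1.45, SE 0.369) and the serine synthesis enzyme Psat1 (1.15, SE 0.345). All I/R grafts lay above both controls for 12 of the 30, against 15.8% of all probe sets. Not every target went this way. Map1lc3b (-0.51), Vldlr (-0.50) and Ddit4 (-0.42), named after their values were seen, had all I/R grafts below both controls. None of these 3 had an unadjusted p under 0.05 from limma. No share of all probe sets was computed for groups apart in the lower direction, so these 3 cannot be set against one. Slc6a9, Sesn2 and Cth, also named after their values were seen, had log2 signals of 9.92, 8.47 and 7.88 in I/R 2553 but of 8.60, 7.56 and 5.89 in I/R 2557, an order like that of Chac1 and Trib3. In I/R 2557, all 3 lay below non-I/R 2556 (8.75, 7.62 and 6.44). The count of 9 was 5 without non-I/R 2554 and 1 without both 2554 and 2555, and the 6 past 2-fold became 3 when I/R 2553 was left out, 1 when non-I/R 2554 was and 0 with both 2554 and 2555 out.

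Cytosolic aminoacyl-tRNA synthetases, which charge tRNAs and include known ATF4 targets, mostly had higher means, with no difference as large as 2-fold. Of 20 genes, 18 were measured, 17 had higher means. At an unadjusted p under 0.05 from limma, 8 were higher (7.64% of all probe sets) and none was lower (7.35%). The median was 0.42, and 14 of the 18 had all I/R grafts above both controls, against 15.8% of all probe sets. The glycyl-, seryl- and asparaginyl-tRNA synthetases Gars, Sars and Nars had the smallest p, with log2 fold changes of 0.80 (SE 0.0849), 0.71 (SE 0.105) and 0.59 (SE 0.112; limma, adjusted p = 0.282 for each). Gars had log2 signals of 9.90 and 10.13 in the non-I/R grafts and 10.77, 10.80 and 10.86 in the I/R grafts, so its I/R grafts were close together where those of Trib3 and Chac1 were not. Leaving out a control moved the median to 0.21 (2554) or 0.63 (2556), and the count of 8 became 4 without I/R 2553, 4 without I/R 2557, 5 with the methods' t-test or without both 2554 and 2555 and 13 without non-I/R 2556.

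Other genes linked to CHOP were mostly near no difference. Of 10 measured, 9 had higher means with a median of 0.15, and 2 were higher at an unadjusted p under 0.05 (Tnfrsf10b and the synthetase gene Tars), where 7.64% of all probe sets were. The death receptor gene Tnfrsf10b had 7.39 and 8.14 in the non-I/R grafts and 8.74, 9.08 and 9.49 in the I/R grafts. The log2 fold change of Tnfrsf10b was 1.34 (SE 0.352; limma, adjusted p = 0.29), with the highest signal in I/R 2557, the graft in which Ddit3, Trib3 and Chac1 were lowest of the I/R group. Tnfrsf10b is also a known p53 target. The count of 2 was 1 with the methods' t-test or without I/R 2553 and 0 without I/R 2555 or I/R 2557.

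The other branches of the unfolded protein response, IRE1 and ATF6 with the chaperones they induce, showed no common shift. Of 20 genes measured, 6 had higher and 14 lower means, with a median of -0.072, which was 0.026 without both 2554 and 2555. At an unadjusted p under 0.05, 2 were higher (7.64% of all probe sets) and 1 was lower (7.35%). Edem1, which helps to clear misfolded glycoproteins, had 0.44 (SE 0.063; limma, adjusted p = 0.282), and Ern1, the sensor IRE1, had 0.60 (SE 0.161). The chaperone Hsp90b1 was lower, at -0.38 (SE 0.108), and was not under that threshold without non-I/R 2554, I/R 2555 or I/R 2557. The number lower became 4 when non-I/R 2556 was left out, and the number higher became 1 when I/R 2557 was or with both 2554 and 2555 out. Hspa5, the chaperone BiP and a common marker of this response, was named after its values were seen and had log2 signals of 12.68 and 12.49 in the non-I/R grafts and 12.46, 12.29 and 12.48 in the I/R grafts. Its log2 fold change was -0.18 (SE 0.0934; limma, adjusted p = 0.456), so the gene did not pass in either direction. All I/R grafts nevertheless lay below both controls for Hspa5, by a narrow margin. Among 10 genes of the mitochondrial stress relay and its proteases and chaperones, 3 had higher and 7 lower means, with a median of -0.15. In 4 of them (Dele1, Opa1, Hspd1 and Hspe1) all I/R grafts lay below both controls, and in none above. No share of all probe sets was computed for that lower direction, so neither this count nor the order of Hspa5 can be set against one. None of the 10 passed an unadjusted p of 0.05 by limma in either direction. The number lower was 2 with renewed quantile normalization or without tied probe sets, and 1 with median-centred arrays, with I/R 2555 or non-I/R 2556 left out, or with both 2554 and 2555 out.

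**Figure D5:**
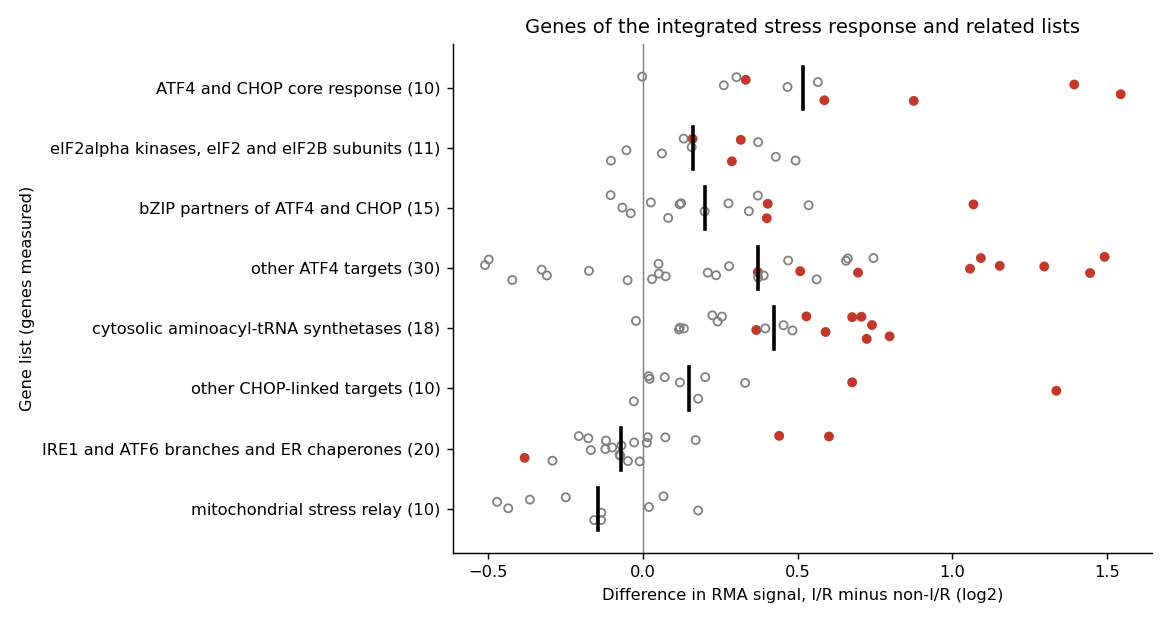
Log2 difference between I/R and non-I/R grafts (x axis) of each gene measured in 8 lists (y axis, number of genes in parentheses); filled red points have an unadjusted p under 0.05 from limma, open points do not, and black bars are medians. The medians of the ATF4 and CHOP genes, the other ATF4 targets and the synthetases are 0.52, 0.37 and 0.42, and that of the IRE1 and ATF6 list is -0.072.

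The genes whose signals followed Asns most closely over the 5 grafts were Mthfd2, Eda2r, Tpd52, Psat1 and Steap1. Likeness was the root mean square (rms) difference between 2 profiles, each centred on its own mean over the 5 arrays, among 21788 other probe sets, with no test. The rms difference from Asns was 0.108 for Mthfd2, 0.152 for Eda2r and 0.186 for Steap1. Among the 10 genes, Ppp1r15a was nearest to Asns (0.238, rank 21), then Atf4 (0.351, rank 149), and Chac1 was farthest (0.717, rank 10331). For Ddit3 the nearest were Snx10 (0.0132), Pcnp, Tead2, Cd24a and Tipin, whose log2 fold changes were 0.21 to 0.31, and Atf5 was the nearest of the 10 genes (0.152, rank 1156). By correlation among probe sets with a range of at least 1, the 5 genes nearest to Ddit3 were Sesn2, Slc1a4, Slc6a9, Cyb5r1 and Trib3, none of them shared with the first measure, and for Asns only Mthfd2 was shared.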

How the data were processed

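Messenger RNA was measured in 5 grafts on Mouse Gene 1.0 ST arrays. The authors deposited log2 values for 35556 probe sets, made with Partek and RMA according to the submitters' processing notes, without versions. The genome build is not given in the sources used here. Groups were taken from the source names in the labels. Array medians were 6.58 to 6.65. Gene names came from the annotation of the array (21789 with 1 symbol, 1621 with several, 12146 not listed), with symbols updated by a RefSeq table of GRCm38.p6 in which 99.6% of the gene IDs were found. The deposited values were tested without further normalization or filter by limma 3.58.1 in R 4.3.3 (lmFit, eBayes, prior df 0.824), with Benjamini-Hochberg adjustment over the 21789. Zero spread in probe sets tied on all arrays (757) was offset by limma. A gene with several probe sets was represented by the one of highest mean, and background percentages are over probe sets. Positive differences are higher in I/R.

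The members and gene lists were chosen with earlier results of these data known. Named genes are all members, the 3 of smallest p in each direction from each list, the nearest 5 by likeness, the 2 brightest markers of some lists and others said to be chosen after their values were seen. Some listed genes, among them Eif2s1, Gdf15, Pycr1, Aars, Dars, Serpina1a and Cfd, had no probe set with a single symbol and were not analysed here. A listed gene called measured is one with such a probe set. Mean deviations in endothelial, fibroblast, lymphocyte and fat cell marker lists had ranges of -0.105 to 0.173, -0.218 to 0.256, -0.068 to 0.073 and -0.049 to 0.088. For 6 hepatocyte markers the range was -0.113 to 0.114. Alternatives were the methods' ANOVA (with 2 groups, an equal-variance test), trended or robust eBayes, array weights, median centring, quantile normalization, a filter at the 25th percentile of mean signal, other sets of probe sets and each array left out. Steps were tested on simulated data. Figures used matplotlib 3.10.9 (Python 3.11.15).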

Additional observations from a re-analysis of the deposited data

How the results depend on the processing

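With 1 graft left out, the number of members higher at the 2-fold criterion was 2 to 3, the number at an unadjusted p under 0.05 was 4 to 6 and their median log2 fold change was 0.34 to 0.70. Where 1 control was left out, the lone control was assumed to vary like the I/R grafts. Under the other 10 planned settings these counts were 2 and 4 to 5, and the median was 0.31 with array weights. Leaving out both 2554 and 2555, chosen after seeing the data, gave 1 member at the 2-fold criterion and turned the median of the IRE1 and ATF6 list to 0.026. The sign turned for Fgf21 without I/R 2557 (0.046, over a range of -0.051 to 0.046) and for Ppp1r15b with its dimmer probe set (-0.079). The smallest adjusted p of any member was 0.0776, for Asns without tied probe sets. The dim and tied filters removed Fgf21. With median-centred arrays, the levels of the ATF4 and CHOP genes and of the heart and atrial muscle markers kept their sign in every graft, while the neutrophil list in I/R 2553 became 0.00084 and the macrophage list in I/R 2555 became -0.015. No paired analysis was possible because the labels give no replicate numbers; grafts were numbered within each group in accession order, which pairs none of them.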
